A study of Mus musculus with 8 samples.

Results

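The genes described here encode DNA-binding transcription factors of the homeobox (Hox, sine oculis, Meis and Pbx, Irx), T-box (Tbx), Krüppel-like (Klf), GATA, TEAD, NFAT, MEF2, nuclear factor I (Nfi) and nuclear receptor (Nr) families. They were chosen by name: every gene whose symbol fitted the pattern of 1 of these 12 families (Meis and Pbx counted as 1) and that had a peak of N6-methyladenosine (m6A) in at least 1 of 4 peak lists. This gave 61 of the 5987 gene names in the lists, with 432 of 38927 peaks. The name patterns take in 2 genes that are no factors of these families, namely Hoxa11os, a long non-coding RNA antisense to Hoxa11, and Nr2c2ap, a protein associated with a nuclear receptor. They leave out receptors with other symbols, such as Rora and Ppara, which are counted further on.

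The lists come from m6A MeRIP-seq, in which RNA fragments bound by an antibody against m6A are sequenced beside input RNA, not put through that selection. The tissue was gastrocnemius, a calf muscle, of male C57BL/6 mice aged 10 weeks. Denervated muscle was taken 14 days after denervation, and innervated muscle came from the opposite leg, so the control muscle came from animals with a denervated leg. Each group had 2 immunoprecipitated libraries, whose lists name the input of the same number, and a list held 9327 to 10300 peaks. The labels do not say which animals gave which library, so SDs and p-values reflect only how these libraries varied and may be technical.

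m6A is the most common internal mark of messenger RNA. It is written co-transcriptionally on part of the transcripts of a gene, often near stop codons and in long internal exons, and it affects how long a transcript lasts and how well it is translated. In muscle, MEF2 and NFAT factors couple nerve activity and calcium signals to fibre-type genes. Hox and T-box factors keep a record of position along the body and limb, and nuclear receptors and several KLF factors answer to hormones and fasting. A peak list shows where the antibody signal passed the authors' limit. It holds no transcript level, and a peak can be missed because a transcript is scarce. In whole muscle, fewer cells of a type and less RNA per cell cannot be told apart.

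Both denervated lists held fewer peaks in these genes than either innervated list, while the numbers of genes that carried them overlapped. In the order innervated 1, innervated 2, denervated 1 and denervated 2, used for every run of 4 values from here on, the lists held 114, 119, 99 and 100 peaks of these genes. The means were 116.5 ± 3.54 and 99.5 ± 0.707 peaks (SD, n = 2), and the difference of −17 had an exact two-sided permutation p of 0.333, the smallest that 2 against 2 libraries allow (0.889 after Benjamini-Hochberg adjustment over 4 such tests). As a share of all peaks in the list, these were 1.22% (95% Wilson interval 1.02 to 1.47), 1.16% (0.966 to 1.38), 1.01% (0.830 to 1.23) and 1.05% (0.867 to 1.28), intervals that overlap and cover counting error only. The genes with a peak numbered 44, 48, 48 and 45, and these ranges overlapped (exact permutation p = 1). Each peak carries a score of unstated meaning. Among the 50% of peaks with the largest scores, the difference in peaks was −1.5, and among the 50% with the smallest it was −15.5. With equal numbers of peaks per list it was −17.5.

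Of the 61 genes, 30 (49.2%) had a peak in all 4 lists, against 48.8% of all genes in the lists. Another 14 were in 3 lists, 6 in 2 and 11 in 1. Klf5 and Nr3c2 had peaks in both denervated lists and neither innervated list, which is 2 of 61 (3.28%) beside 3.42% of all genes. Nfia had peaks in both innervated lists and neither denervated list, 1 of 61 (1.64%) beside 3.14% of all genes. These shares were close to or below those of all genes. Leaving out 1 list at a time, in the order given, put the denervated-only genes at 3, 5, 5 and 7 and the innervated-only genes at 2, 3, 6 and 6; by construction the group left with 1 list then needs only that list. By number of peaks, both innervated lists lay above both denervated lists in 6 genes (9.84%, beside 7.63% of all genes), and the opposite held in 5 (8.20%, beside 6.80%).

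**Figure D1:**
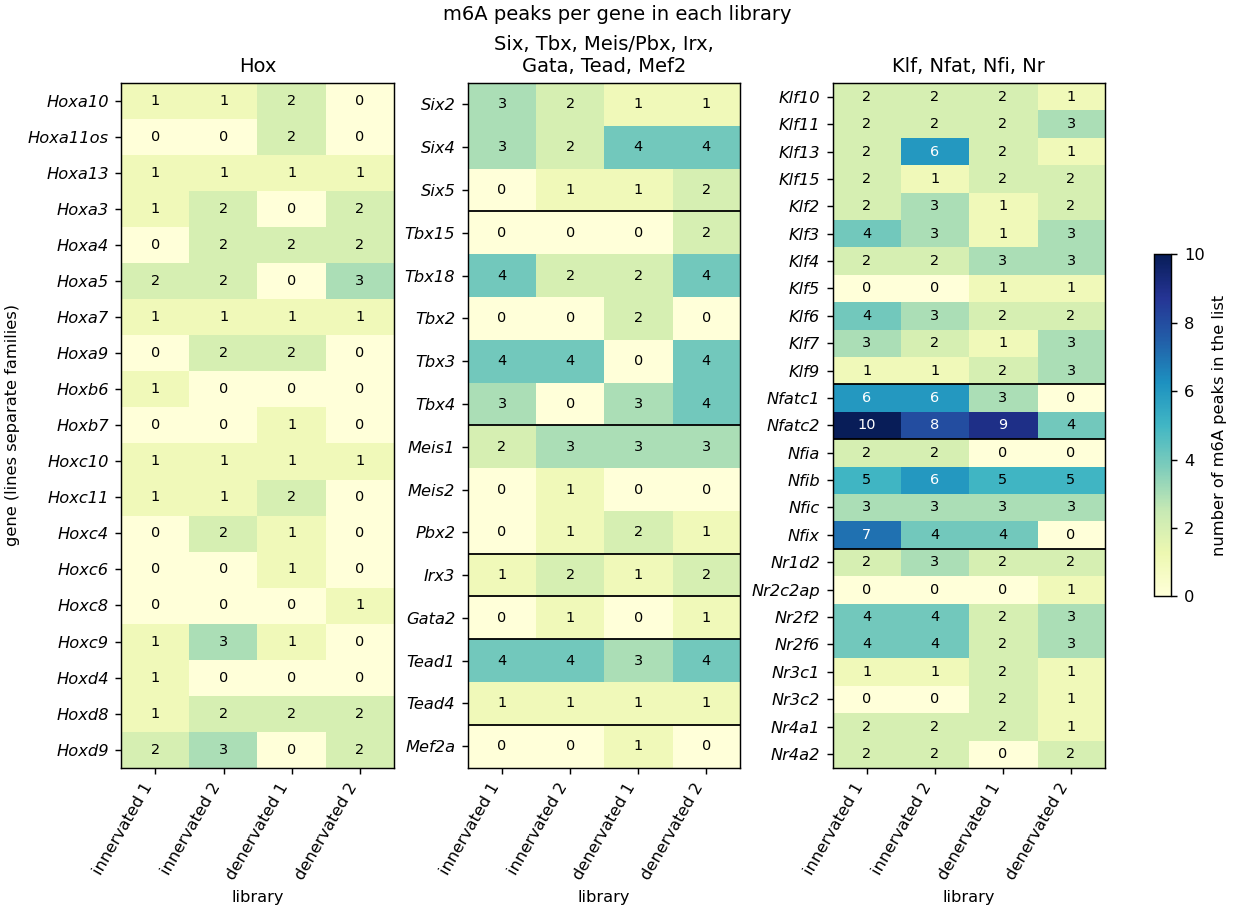
Number of m6A peaks of 60 of the 61 genes in each of the 4 lists, with genes as rows, libraries as columns and the number printed in each cell; black lines separate families. Nfatc2, with 10, 8, 9 and 4 peaks, has the most, Nfatc1 and Nfix are at 0 in denervated 2, and Klf5, Nr3c2 and Nfia are at 0 in both lists of a group.

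Families differed in how often their genes recurred. Of 11 Klf genes, 10 had a peak in all 4 lists, as did 3 of 4 sine oculis genes, 5 of 8 Nr genes and both Tead genes, against 4 of 19 Hox genes and 1 of 5 Tbx genes. The families are small, and these counts were not tested against each other. By the RefSeq symbols of GRCm38.p6, 60 of the 134 protein-coding genes that fit the patterns had a peak (44.8%), beside 5556 of 21900 (25.4%) of all protein-coding genes matched by exact symbol. All 4 Nfi genes had one, as did 11 of 17 Klf and 4 of 6 sine oculis genes. Of 4 Mef2 genes, Mef2a alone had a peak, and of 6 Gata genes Gata2 alone.

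**Figure D2:**
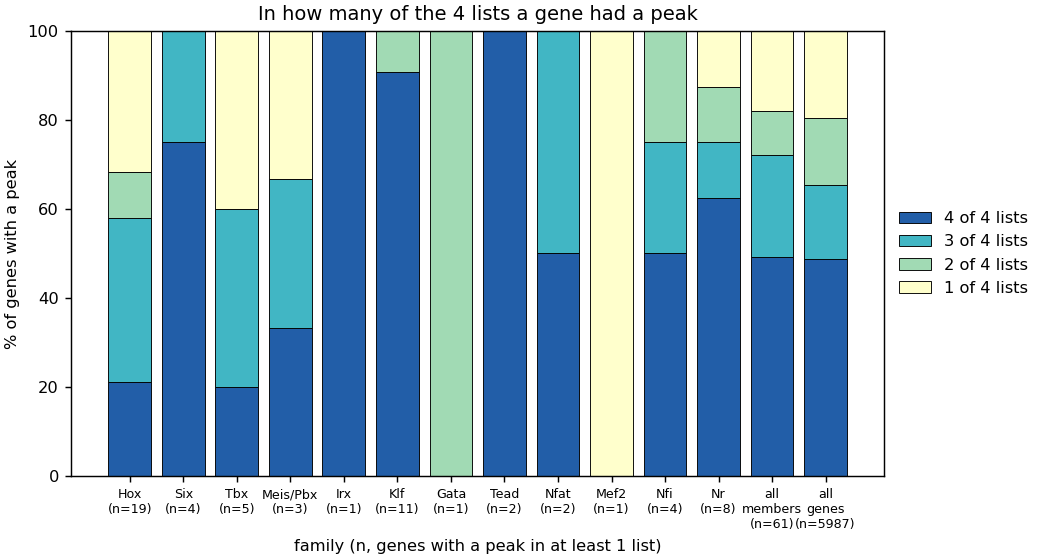
Share of the genes of each family, of all 61 genes and of all 5987 genes that had a peak in 4, 3, 2 or 1 of the 4 lists, in percent of those genes; n is given under each bar. The Klf bar is almost wholly dark (10 of 11 genes in all 4 lists), and the Hox bar holds 4 of 19 such genes.

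Hox genes, which specify position along the body axis and in limb segments, carried few and inconstant peaks. Of 39 protein-coding Hox genes, 18 had a peak: 7 of 11 of the a cluster, 2 of 10 of the b cluster, 6 of 9 of the c cluster and 3 of 9 of the d cluster. The number of Hox genes with a peak, Hoxa11os included, was 12, 13, 13 and 9. Hoxa7, Hoxa13, Hoxc10 and Hoxd8 had peaks in all 4 lists. The peak of Hoxa13 spanned a splice junction in each list, covering 292, 341, 292 and 292 bases, and that of Hoxc10 covered 590, 492, 541 and 345 bases.

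Among the 7 Hox genes found in 3 lists, the missing list varied. Hoxa10, Hoxc9 and Hoxc11 had no peak in denervated 2, Hoxa3, Hoxa5 and Hoxd9 had none in denervated 1, and Hoxa4 had none in innervated 1. Hoxa5, with the most regions of its family, had 2, 2, 0 and 3 peaks, and Hoxd9 had 2, 3, 0 and 2. Neither gene separated the groups. The denervated lists thus differed from each other in Hox calls. The innervated lists did too: Hoxb6 and Hoxd4 had a peak in innervated 1 but not innervated 2, and Hoxa4, Hoxa9 and Hoxc4 the reverse. In all, 0 Hox genes were in both lists of a group and neither of the other. The Hoxa4 and Hoxa5 peaks also lie inside the RefSeq span of Hoxa3 on the same strand, and the Hoxd4 peak inside that of Hoxd3, so their assignment to a gene is uncertain. The Hoxa11os peaks, 2 in denervated 1, lie partly within the span of Hoxa11, which had no peak. The library kit keeps the strand, but how strand was used in calling is not stated.

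The TALE homeobox genes are partners of Hox proteins on DNA. Meis1 had 2, 3, 3 and 3 peaks and covered 251, 452, 651 and 600 bases. Both denervated lists were above both innervated ones in bases, while the groups overlapped in peaks. Peaks that share a base on the same strand are joined here into a region, and the 61 genes had 142 regions. Meis1 held 2 regions called in all 4 lists near the 3′ end, chr11:18881475-18881724 and chr11:18881774-18884392 (mm10, as all coordinates here). Pbx2 had 0, 1, 2 and 1 peaks, and Meis2 a single peak in innervated 2. Irx3, an Iroquois factor, had 1, 2, 1 and 2 peaks, with 1 region common to all lists.

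Sine oculis factors act with Eya coactivators. Six4, a factor of muscle development, had 3, 2, 4 and 4 peaks, which covered 1944, 2190, 2143 and 2293 bases. The number of peaks was higher in both denervated lists, but the bases covered overlapped between the groups. Its largest region ran across an intron, chr12:73103094-73112399, and covered 1543, 1692, 1594 and 1743 bases.

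Six2 had 3, 2, 1 and 1 peaks and lay higher in innervated muscle in peaks and in bases covered (395, 492, 197 and 295). Six5 had 0, 1, 1 and 2. Peaks of this family lay towards the 5′ end: 18 of 32 (56.2%) were in the 5′-most 20% of the gene span and 0 in the 3′-most 20%. The same shares of peaks of all genes were 11.2% and 56.9%, over 37146 peaks with a RefSeq span. The span includes introns, so it does not show a place in the mature transcript.

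The peak at the 5′ end of Six4 reached an annotated start of transcription in 3 lists, innervated 2 and both denervated lists. Of the 42 genes with a RefSeq start, 6 had a peak there, Six4 included, and 4 of these in 1 list only. The same share over all genes was not counted. The other 5 were Nr2f6 in innervated 1 and denervated 1, Klf4 and Hoxa5 in denervated 2, Meis1 in denervated 1 and Six2 in innervated 1. In each of these, a peak covered all of the first 50 transcribed bases. The first 30 transcribed bases are given here (RefSeq, GRCm38.p6, minus strand, 5′ to 3′, with the annotated first base as a capital). They open the windows of 50 bases in which a motif was searched for, and the other bases of these windows are not shown.
Six4, chr12:73113216-73113245: Gggaaagaaagaggaaaagagtgcgaggga
Nr2f6, chr8:71381923-71381952: Ggcgccgatggaacgcgggtgtcaggccgg
Klf4, chr4:55532446-55532475: Agttccccggccaagagagcgagcgcggct
Hoxa5, chr6:52204558-52204587: Ctccacccaactcccccattagtgcacgag
Meis1, chr11:19018940-19018969: Agcattctggtcggaatccacctctccgcc
Six2, chr17:85688225-85688254: Cgaacgagcgaggagccggcgagcgagcgg
The motif GGAC, the core of the commonest m6A site, was searched for on the transcribed strand in the 50 bases after the start. It was in 0 of the 6 windows and in 18.9% of all 32851 such windows. The first base was A in 2 of the 6, Klf4 and Meis1, and in 34.4% of all windows. A first base A next to the cap can carry a related mark, m6Am, which m6A antibodies also bind. The rest of each peak was not searched.

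T-box genes had many small peaks near the 3′ end, with a median width of 101 bases and 32 of 38 peaks in the 3′-most 20% of the span. Tbx18, a factor of mural and mesenchymal cells, was the family's gene with a peak in every list, with 4, 2, 2 and 4 peaks over 602, 650, 450 and 451 bases. Tbx3, which acts in limb patterning, had 4, 4, 0 and 4 peaks, and Tbx4, a determinant of the hindlimb, had 3, 0, 3 and 4. Each was thus missing from 1 list, of a different group. Tbx15, a factor of fast glycolytic fibres, had 2 peaks in denervated 2, and Tbx2 had 2 in denervated 1.

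The Krüppel-like factor genes that had a peak, apart from Klf5, had peaks in every list. The 11 genes had 24, 25, 19 and 24 peaks, and 13 of their 24 regions were called in all lists (54.2%, beside 34.6% of all regions). Klf4, a reprogramming factor, had 2, 2, 3 and 3 peaks and covered 1947, 2147, 2098 and 2249 bases. Klf9, induced by glucocorticoid and thyroid hormone, held the widest peak of all 61 genes, 2127 bases in innervated 2, in a region across an intron, chr19:23141275-23165923. In Klf9 the innervated lists had 1 peak each, of 2027 and 2127 bases, while the denervated lists had 2 and 3 smaller peaks, which covered 1287 and 1981 bases in all. More peaks therefore went with fewer bases in Klf9, and a peak count alone does not measure how much of a transcript was covered.

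Klf13 had the most regions in the family, 6, of which 5 were in innervated 2 alone. Its peaks numbered 2, 6, 2 and 1, and its shared region, chr7:63890248-63891647, covered 1201, 1350, 1201 and 1400 bases. Klf3, a repressor, had 4, 3, 1 and 3 peaks, and Klf6 had 4, 3, 2 and 2. In both, the bases covered were higher in both innervated lists: 643, 642, 297 and 445 in Klf3 (means 642.5 ± 0.707 and 371 ± 105, SD, n = 2) and 847, 995, 448 and 597 in Klf6 (means 921 ± 105 and 522.5 ± 105). Klf15, a regulator of amino acid breakdown, covered 700, 899, 650 and 651 bases, with the groups just apart. Klf2 (2, 3, 1 and 2 peaks), the shear-stress factor of endothelium, Klf7 (3, 2, 1 and 3), Klf10 (2, 2, 2 and 1) and Klf11 (2, 2, 2 and 3) overlapped between the groups.

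Klf5, a zinc finger factor of proliferating and differentiating cells, had no peak in either innervated list and 1 peak of 346 bases in each denervated list, at chr14:99301637-99302031. The peaks had the same length, 0.21 of the way along the gene span. Their scores stood at percentiles 10.98 and 73.1 of their lists (100 at the smallest score). The call therefore ended both among the 50% of peaks with the smallest scores and among the 50% with the largest.

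Nuclear factor I genes, which in muscle include Nfix, a switch from embryonic to fetal myogenesis, held fewer peaks and covered bases in both denervated lists. The 4 genes together had 17, 15, 12 and 8 peaks over 5311, 5808, 4157 and 2805 bases, and denervated 2, the lower of the denervated lists, lacked Nfia and Nfix altogether. Nfia had 2, 2, 0 and 0 peaks over 302, 302, 0 and 0 bases, in regions chr4:97783232-97783332 and chr4:98111482-98111782. The widths were equal in both innervated lists, 101 bases in the first region and 201 in the second. The second region was 301 bases long, so its peaks overlapped only in part. The call of Nfia ended among the 50% of peaks with the smallest scores. Nfib had 5, 6, 5 and 5 peaks, and these covered 1754, 1704, 1104 and 1153 bases (means 1729 ± 35.4 and 1128.5 ± 34.6, SD, n = 2), so that the groups overlapped in peaks but not in bases.

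Within Nfib, 2 regions recurred in all lists, both in the 5′-most part of the span. In the region chr4:82504830-82505779, 900, 701, 601 and 502 bases were covered, by 1, 2, 2 and 3 peaks. Nfix had 7, 4, 4 and 0 peaks over 1604, 1851, 1452 and 0 bases, and its absence came from denervated 2 alone. Nfic, in contrast, had 3 peaks in each list, over 1651, 1951, 1601 and 1652 bases. The bases covered by Nfic overlapped between the groups. Innervated lists lay above denervated lists without overlap in 3 of the 4 Nfi genes by bases, and in 14 of all 61 genes (23.0%, beside 14.8% of all genes). The opposite held in 6 of 61 (9.84%, beside 13.8% of all genes).

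**Figure D3:**
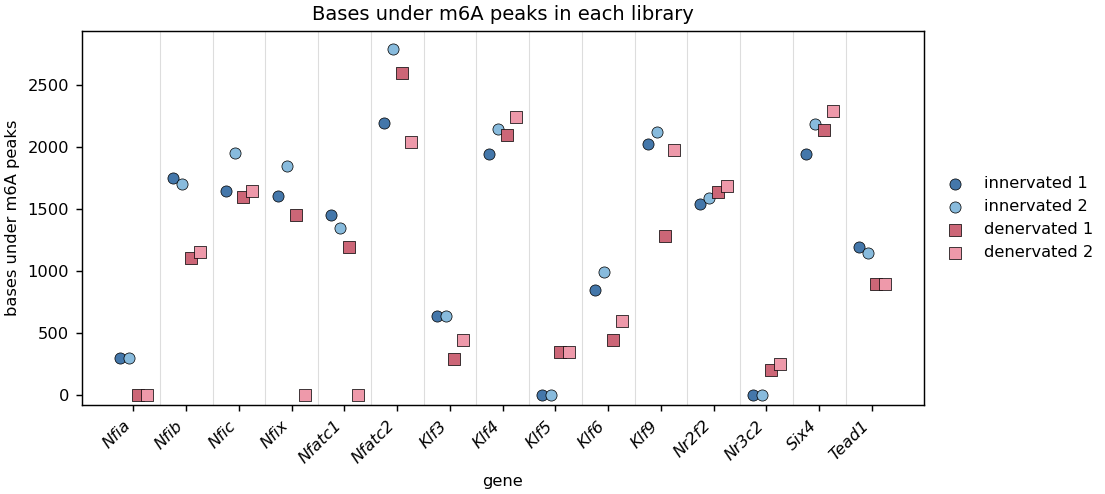
Bases under m6A peaks (sum of peak widths, introns left out) of 15 of the 61 genes in each of the 4 libraries; circles are innervated and squares denervated libraries, and each symbol is 1 library. Nfib lies at 1704 to 1754 bases in innervated and 1104 to 1153 in denervated muscle, Nfix and Nfatc1 are at 0 in denervated 2 alone, and Nfatc2, Klf4 and Six4 overlap.

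NFAT factors move to the nucleus when calcineurin senses calcium, and Nfatc1 is a sensor of nerve activity in muscle fibres. Nfatc2 had the most peaks and regions of the 61 genes, with 10, 8, 9 and 4 peaks in 7 regions. The bases covered were 2200, 2797, 2599 and 2046, and the groups overlapped. Its 3 regions called in all lists lay at the 3′ end, chr2:168476609-168477606, chr2:168478702-168479200 and chr2:168479250-168480246. In the first of these, the innervated lists had 3 and 2 peaks and the denervated lists 3 and 1, over 650, 899, 750 and 699 bases. Nfatc1 had 6, 6, 3 and 0 peaks over 1451, 1352, 1200 and 0 bases, with both innervated lists above both denervated ones. The means were 1402 ± 70.0 and 600 ± 849 bases (SD, n = 2), and the spread of the denervated lists is larger than the difference of −802. Of 6 genes that fit the NFAT pattern, Nfatc3, Nfatc4 and Nfat5 had no peak, nor had Nfatc2ip, whose product is an interacting protein. Nor had Mef2b, Mef2c and Mef2d, and Mef2a had 1 peak, of 351 bases, in denervated 1.

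TEAD factors bind the coactivators YAP and TAZ. Tead1 had 4, 4, 3 and 4 peaks over 1197, 1148, 899 and 900 bases. The bases covered were higher in both innervated lists (means 1172.5 ± 34.6 and 899.5 ± 0.707, SD, n = 2), while the groups overlapped in peaks. The difference lay mostly at the 5′ end, in a region across an intron, chr7:112679370-112759425, where 399, 399, 200 and 200 bases were covered. The 3′ region chr7:112904116-112904912 covered 648, 648, 699 and 599 bases. Tead4 had 1 peak in each list. Gata2, a factor of blood and endothelial cells, had 1 peak of 550 bases in innervated 2 and 1 of 500 in denervated 2, in the same region.

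Among nuclear receptors, Nr3c1, the glucocorticoid receptor, had 1, 1, 2 and 1 peaks. A single wide region covered 1247, 1147, 1247 and 1197 bases in the 4 lists. That region stood at a mean score percentile of 91.1. Nr3c2, the mineralocorticoid receptor, had 0, 0, 2 and 1 peaks over 0, 0, 201 and 250 bases. The region in both denervated lists was chr8:77242593-77242842, at the 3′ end of the gene span. It stood at a mean percentile of 10.6, and the call ended among the 50% of peaks with the smallest scores. The second region of Nr3c1, 101 bases in denervated 1 alone, stood at 0.143, the lowest percentile of the 142 regions, so both receptors held regions at low percentiles.

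Nr2f6, an orphan receptor, had 4, 4, 2 and 3 peaks over 1137, 1433, 1037 and 1137 bases. Nr2f2, its relative, which marks venous endothelium and mesenchyme, also had 4, 4, 2 and 3 peaks, over 1543, 1595, 1642 and 1692 bases. In both the innervated lists had more peaks, but in Nr2f2 the denervated lists covered slightly more bases. Nr1d2, a clock receptor of the REV-ERB type, was steady, with 2, 3, 2 and 2 peaks over 750, 800, 850 and 700 bases. The early-response receptors Nr4a1 and Nr4a2 covered 794, 844, 597 and 348 bases and 552, 902, 0 and 402 bases. In both, innervated lists lay above denervated ones, and Nr4a2 had no peak in denervated 1. Nr2c2ap had 1 peak, in denervated 2.

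Regions found in a single group were mostly innervated ones. Of the 142 regions, 43 (30.3%) were called in all 4 lists, beside 34.6% of all regions. Regions in both innervated lists and neither denervated list numbered 10 (7.04%, beside 4.20% of all regions), and 2 were in both denervated lists alone (1.41%, beside 3.67%). The 10 lay in 8 genes: 4 in Nfia and Nfix, and 1 each in Hoxa5, Klf3, Klf6, Nfatc1, Nr2f2 and Tbx3. The 2 were those of Klf5 and Nr3c2. The counts moved with the lists used: leaving out 1 list at a time, in the order given, there were 23, 18, 23 and 22 innervated-only and 7, 7, 10 and 14 denervated-only regions. Among the 50% of peaks with the largest scores, there were 11 and 10, and among the 50% with the smallest, 8 and 2.

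Many of the innervated-only regions were short and close to a region that denervated lists also held. That of Klf3, chr5:64829785-64829981, covered 99 bases in each innervated list. The region was 197 bases long, so the peaks of these lists lay almost end to end. It lay 246 bases from the next region of the gene and 590 from a region called in all lists. That of Klf6, chr13:5868607-5868905, covered 150 and 249 bases and lay 743 bases from a region called in all lists. The Nr2f2 region, chr7:70352546-70352795, covered 200 and 250 bases at a distance of 1539. Each of these 3 genes therefore had called regions in both denervated lists.

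In the other 5 genes no region was called in all lists. Tbx3 held its innervated-only region of 101 bases at chr5:119683527-119683627, 98 bases from a region that denervated 2 held as well. The 2 of Nfix, chr8:84706609-84706709 and chr8:84706809-84707058, and that of Nfatc1 were in genes without a peak in denervated 2. Hoxa5 held its own at chr6:52202791-52203945, across an intron, 98 bases from a region called in denervated 2 alone. Of the 12 single-group regions, 9 had a mean score percentile below 50, with a median of 25.5 over the 12. So did 20 of the 43 regions called in all lists and 77 of all 142 stand below 50. The median was 52.1 over the 43 regions called in all lists and 47.5 over all 142.

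Peak widths and positions overlapped between the groups or met at a shared value. The median width was 250 bases for these genes and for all genes. By list it was 221.5, 250, 292 and 250 bases, and the groups met at 250 (exact permutation p = 0.667, adjusted 0.889). The difference of 35.2 bases rested on single lists, since it ran from 14.2 to 56.2 with 1 list left out and was 3.5 when introns within peaks were counted. Peaks over a splice junction made up 87 of 432 (20.1%), beside 12.6% of all peaks. In the 3′-most 20% of the gene span lay 205 of 432 peaks (47.5%, beside 56.9% of all peaks), and 79 (18.3%, beside 11.2%) lay in the 5′-most 20%. The 3′ share was 48.9% ± 0.943 in innervated and 45.7% ± 3.88 in denervated muscle (SD, n = 2; exact permutation p = 0.667, adjusted 0.889). Its difference of −3.17 percentage points ran from −5.91 without denervated 1 to −0.428 without denervated 2. The genes held 2.33 regions on average, beside 2.20 over all genes, and 19 of 61 (31.1%) had a single region, beside 43.5%.

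**Figure D4:**
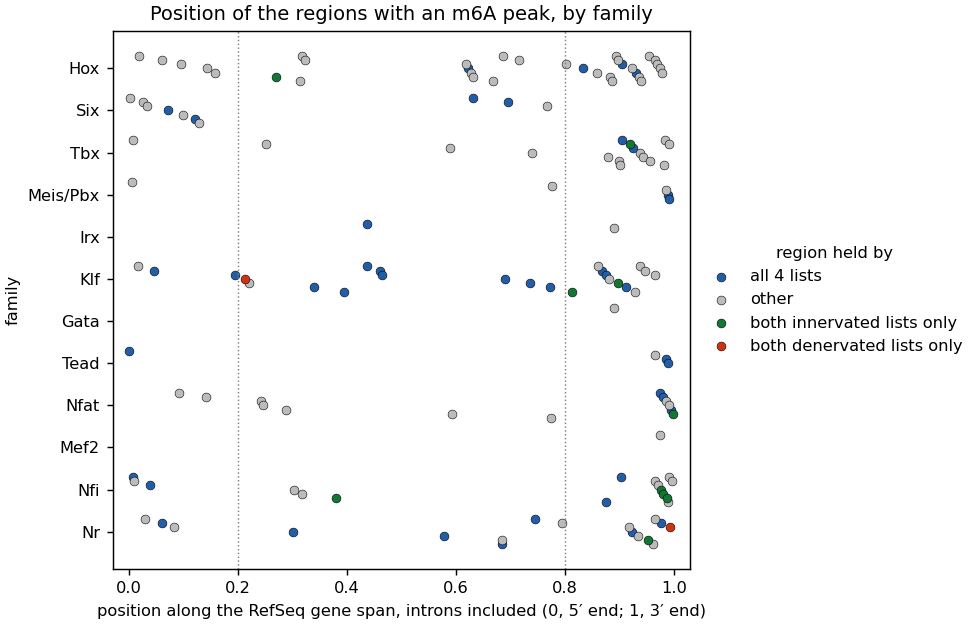
Position of each of the 142 regions along the RefSeq span of its gene (x axis, 0 at the 5′ end and 1 at the 3′ end, introns included), by family; colour shows which lists held the region, and dotted lines mark the 20% at either end. Points are spread vertically within a family for legibility. Tbx and Tead regions mostly lie at the 3′ end, while the sine oculis regions all lie before the last 20%.

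Partner genes of these factors are given by the same counts, beside 48.8% of all genes in all lists, 3.42% denervated only and 3.14% innervated only. Of 11 MEF2 partners, 8 had a peak and 7 of these were in all lists, Hdac4 and Mapk14 among them. Of 11 TEAD partners, 6 had a peak and 4 were in all lists, including Yap1. Among 7 sine oculis partners, 4 had a peak, 3 in all lists (Eya1, Eya4 and Ski), and Dach1 was innervated only with 3, 2, 0 and 0 peaks. All 11 nuclear receptor cofactors had a peak, 8 of them in all lists, and Ncor1 was innervated only with 3, 3, 0 and 0. Of 24 nuclear receptors with other symbols, 13 had a peak and 6 of these (46.2%) were in all lists, Rara, Rarb, Rxra and Rora among them. Of 31 other homeobox genes, 22 had a peak and 14 were in all lists, with 0 in a single group.

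Single-group calls in the calcineurin and NFAT list were denervated ones. Of its 14 genes, 6 had a peak. Ppp3cb, a catalytic gene of calcineurin, the inhibitor gene Rcan1 and the kinase gene Dyrk1a were in all lists. The catalytic genes Ppp3ca and Ppp3cc had no peak. Akap6, which encodes a scaffold that binds calcineurin at the nuclear envelope, had 0, 0, 9 and 7 peaks, and Cabin1, which encodes a calcineurin inhibitor, had 0, 0, 1 and 1. Gsk3b, a kinase that opposes NFAT in the nucleus, had 4 peaks in denervated 1 alone. The summed peaks of the list were 5, 5, 19 and 12, but without Akap6 they were 5, 5, 10 and 5, so that denervated 2 was no longer higher.

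Markers of other cells were counted in the same lists. The 14 genes taken as defining muscle fibres, Acta1, Ckm and Ttn among them, had no peak in any list, so the tissue label could not be checked against them. The 6 macrophage markers had none either. Endothelial markers with a peak numbered 4 of 6, with 4, 3, 7 and 7 peaks in all. Fibro-adipogenic markers numbered 4 of 6, with 3, 3, 5 and 4 peaks, and Schwann cell markers 2 of 6, with 0, 1, 3 and 2. Satellite cell markers numbered 2 of 5, with 0, 2, 2 and 1 peaks. The endothelial, fibro-adipogenic and Schwann sums were higher in both denervated lists. Without Pdgfra, which had 2, 1, 2 and 2 peaks, the fibro-adipogenic sums were 1, 2, 3 and 2, and the groups met at 2. Without Ngfr the Schwann sums were 0, 1, 0 and 0, so the Schwann difference rested on 1 gene. Without Cdh5 the endothelial sums were 2, 1, 4 and 4. Peaks of the 61 factor genes were fewer in both denervated lists. The part of these cell types in the results was not tested.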

How the data were processed

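The 4 IP libraries (2 per group) were analysed through 1 deposited peak list each. Per the file headers, the authors' lists give position, strand, blocks, gene name and a score per peak; per the deposited lists' names, each IP was set against its own input. Of tools and builds, mm10, ChIPseeker and STAR 2.4.2a appear in the submitters' processing notes. The peak caller, like the meaning of the score, is not given in the sources used here. Deposited scores ran from 0 to 0.023 and served as percentiles within a list; whether small scores mark strong peaks is not known. Read depth is unknown.

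Peaks sharing at least 1 block base on the same strand were linked into regions (Python 3.11.15, pandas 2.3.3; checked on simulated lists). A gene or region was called in a single group if both lists of that group and neither other list held it. For values per library, the test was a two-sided exact permutation. Spans came from RefSeq GRCm38.p6, the assembly of mm10, matching 61 of 61 genes. Genes were named by a rule: single-group genes, the 2 with most regions per family, genes with a single-group region beside a shared one, and the widest and most recurrent; others illustrate a count. Members, lists and tests were chosen with earlier results of these data known. Motif search within peaks was not run beyond the 50 bases after an annotated start. Some genes of the families and lists are counted but not reported here by name.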

Additional observations from a re-analysis of the deposited data

How the results depend on the processing

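Of 111 alternatives, 3 reversed a direction, and 34 moved a count by over 1.5 times or changed in how many lists a single-group gene was found. The other 74 include tested differences that kept their sign but changed in size: in peaks −1.5 among the 50% with the largest scores, and in median width 3.5 bases when introns were counted. Their p stayed above the threshold of 0.05. This was fixed in advance, since the smallest exact permutation p that 2 against 2 libraries allow is 0.333. Leaving out a library in turn gave 3 to 7 denervated-only and 2 to 6 innervated-only genes, 7 to 14 and 18 to 23 such regions, and a difference in genes per list (denervated minus innervated, 0.5 with all lists) of −1.5 to 2.5, negative without innervated 1 (−1.5) and without denervated 1 (−1). The width difference ran from 14.2 to 56.2 bases and the 3′ share from −5.91 to −0.428 percentage points. Among the 50% of peaks with the smallest scores, 9 genes and 11 regions were called in all lists, 2 genes were innervated only, and the difference in genes was −5. Among the 50% with the largest scores, 10 genes and 7 regions were called in all lists, 3 genes were innervated only and 10 regions denervated only. Equal numbers of peaks per list (9327) gave 2 innervated-only genes, and reciprocal overlap of at least 50% gave 7 denervated-only regions. Keeping 50% of peaks leaves fewer peaks to recur; the cause of the other shifts was not tested. Assignment by gene body, linking by genomic span and joining peaks within 100 bases left counts within 1.5 times.

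With a replicate block, the difference in peaks was −17, in genes 0.5, in median width 35.2 bases and in the 3′ share −3.17 percentage points, as without it. The exact sign-flip p of the peaks was 0.5, the smallest that 2 pairs allow. Deviations of same-numbered lists correlated at 0.0144 over 5987 genes, which gives no sign of pairing; whether same-numbered libraries share an animal is not stated. Without read counts, depth limits every absence of a peak.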
